A study of Mus musculus with 8 samples.

Results

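JAK2V617F was set against JAK2WT in blood-forming cells that lacked Gli1, by droplet single-cell RNA sequencing of mouse bone marrow. The cells were those of the 2 libraries titled as Gli1 knockout, of 4 libraries in the series, with at least 500 genes, at least 1000 UMIs (single captured transcript molecules) and under 10% mitochondrial UMIs. By that rule the pair held 10489 of the 22078 cells in all: 6490 in the Gli1KO JAK2V617F library and 3999 in the Gli1KO JAK2WT library. Both groups were irradiated (10.5 Gy) female B6.SJL recipients, 8 to 10 weeks old, of Gli1-/- marrow from 8-week-old donors. The Gli1KO JAK2V617F donor marrow was given mutant JAK2 by retroviral transduction, and the Gli1KO JAK2WT donor marrow unmutated JAK2. Marrow was taken 112 days after transplantation, depleted of mature cells through CD3, B220, TER119, GR1 and CD11b, and sorted into lineage-negative GFP-positive and GFP-negative cells. The proportion in which the sorted cells were loaded is not given in the sources used here. Each library pooled 3 mice that could not be told apart here, so n = 1 per group: the differences given are without replicate check or test, and the ranges in parentheses are 95% intervals for counting error only. The design text of the series gives its question as the part of haematopoietic Gli1 in JAK2V617F myelofibrosis.

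JAK2 is the kinase that thrombopoietin, erythropoietin and related cytokine receptors use to signal. It phosphorylates STAT5 and STAT3, which switch on survival and feedback genes such as Pim1, Socs2, Socs3 and Cish, and the V617F form signals without its cytokine. In myeloproliferative neoplasms it expands blood-forming progenitors, and marrow scarring can follow. Gli1 is a transcription factor of the hedgehog pathway, known in marrow above all from stromal cells. The viral JAK2 enters through the blood-forming cells only, and stromal cells of the recipients carry neither virus nor, by design, the donor's Gli1 deletion.

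After removal of likely doublets, 6035 cells of the Gli1KO JAK2V617F library and 3770 of the Gli1KO JAK2WT library were kept, with a median per cell of 13675 UMIs with JAK2V617F and 17367.5 UMIs with JAK2WT. The whole libraries held 114847114 UMIs with JAK2V617F and 84063880 with JAK2WT, and they shared 19 cell barcodes. Gli1 itself (chromosome 10, 127329882 to 127341974, mm10) could not check the knockout. Kept cells held 4 Gli1 UMIs with JAK2V617F and 0 with JAK2WT, and the wild type libraries held 2 with JAK2V617F and 0 with JAK2WT. Jak2 (chromosome 19, 29251828 to 29313080) stood at 33.8 CPM with JAK2V617F and 34.4 CPM with JAK2WT, a log2 ratio of -0.02 (-0.14 to 0.10). CPM are UMI counts scaled to the same library total, here with the same cell class weights in both libraries. Reads near the 3' end do not tell mutant from normal JAK2 RNA, so these levels say nothing of which form was read. GFP UMIs were found in 59 of the kept cells with JAK2V617F and in 6 with JAK2WT. Y-linked UMIs were found in 72.3% of kept cells with JAK2V617F and 69.9% with JAK2WT, and UMIs of Xist, the RNA of the inactive X chromosome, in 0.878% with JAK2V617F and 2.60% with JAK2WT. In the stromal-like cells the order turned, with Xist in 77.8% with JAK2V617F and 94.7% with JAK2WT and Y-linked UMIs in 18.5% with JAK2V617F and 2.63% with JAK2WT. Y-linked RNA thus marked most kept cells of both libraries, and Xist most stromal-like cells; the recipients were female.

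The make-up of the marrow differed widely between the libraries. Cells were named by marker genes, and a name such as HSC/MPP (haematopoietic stem cells and multipotent progenitors) means only that a cluster resembles that type. HSC/MPP-like cells made up 42.6% (41.3 to 43.8) of kept cells with JAK2V617F and 21.2% (19.95 to 22.6) with JAK2WT, a ratio of 2.004 (1.87 to 2.15). Plasma cell-like cells, which secrete antibody, went the other way, at 0.978% with JAK2V617F and 9.84% with JAK2WT, a ratio of 0.0993 (0.0757 to 0.130). Neutrophil-like cells took 4.32% with JAK2V617F and 0.637% with JAK2WT (ratio 6.79, 4.48 to 10.3), and mast or basophil-like cells 5.65% with JAK2V617F and 2.04% with JAK2WT (2.77, 2.17 to 3.53). Innate lymphoid-like cells, natural killer (NK) cells among them, took 12.8% with JAK2V617F and 5.76% with JAK2WT (2.22, 1.92 to 2.56). Granulocyte-monocyte progenitor (GMP) and promyelocyte-like cells stood at 14.9% with JAK2V617F and 13.7% with JAK2WT (1.09, 0.983 to 1.20), but this ratio was 0.440 with no doublet removal and 0.411 with coarser clustering (resolution 0.5), so its direction is not settled. T cell-like cells stood at 1.24% with JAK2V617F and 1.56% with JAK2WT (0.794, 0.566 to 1.11).

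Several clusters that met no naming rule also shifted. Cluster 4, led by histone genes and Irf8, took 0.878% with JAK2V617F and 7.14% with JAK2WT, and cluster 13, led by Dntt, Cox6a2 and Ly6d, took 0.381% with JAK2V617F and 3.61% with JAK2WT. Cluster 14, led by Cst3 and the class II gene H2-Ab1, took 0.713% with JAK2V617F and 2.86% with JAK2WT. A cluster of low counts, number 30, with a median of 1400 UMIs with JAK2V617F and 1386.5 with JAK2WT, took 3.28% with JAK2V617F and 18.1% with JAK2WT. Cluster 5, led by Prtn3, F13a1, Mpo and Ms4a6c, was close to even at 7.29% with JAK2V617F and 7.90% with JAK2WT. Cluster 28, led by the eosinophil granule genes Prg2, Prg3 and Epx, had 30 cells with JAK2V617F and 4 with JAK2WT. In cluster 30, 1364 of 7729 genes (17.6%) were at least 1.5-fold higher with JAK2V617F and 527 (6.82%) lower, from few UMIs. Over the 2789 genes with at least 30 counts in the library where they were higher, 156 (5.59%) were higher and 247 (8.86%) lower. That count is a stricter limit for higher genes, as the cluster held 335049 UMIs with JAK2V617F and 1062202 with JAK2WT. Over genes at 50 CPM or more in either library, 418 were higher and 136 lower. The depletion and the sort by GFP set these shares in part.

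**Figure D1:**
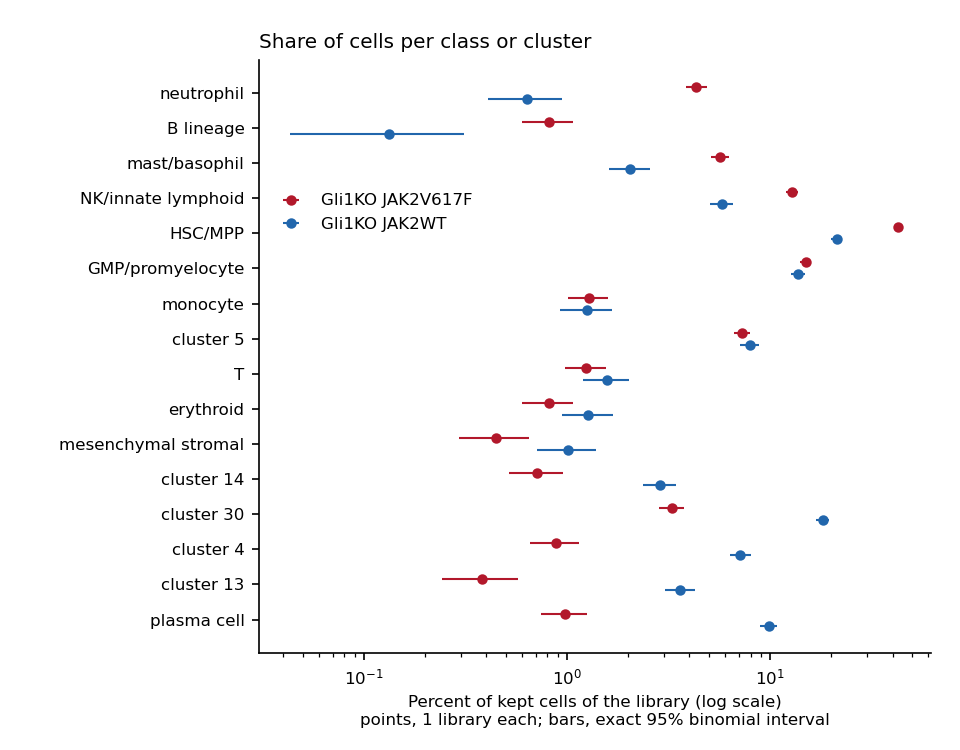
Percent of the kept cells of each library in each class or cluster (log axis), points for the Gli1KO JAK2V617F and Gli1KO JAK2WT libraries with exact 95% binomial intervals. HSC/MPP-like cells stand at 42.6% with JAK2V617F and 21.2% with JAK2WT, and plasma cell-like cells at 0.978% with JAK2V617F and 9.84% with JAK2WT.

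Genome-wide, expression was first compared over the 6 classes with at least 50 cells in both libraries. Each class had the same weight in both libraries (equal class weights), so that a gene's value does not follow the class shares. Equal cluster weights are meant in the same way. A gene's value can still follow the cluster make-up within a class. Of 8080 genes at 10 CPM or more in either library, 48 (0.594%) were at least 1.5-fold higher with JAK2V617F and 39 (0.483%) at least 1.5-fold lower, with 10 CPM added to both values before the ratio. The median log2 ratio of all 8080 was 0.01, and 98.9% lay within 1.5-fold. In sums over all kept cells, where the shares count, 191 genes were higher and 85 lower. With equal weights over 13 clusters in place of classes, 27 of the 48 higher and 18 of the 39 lower genes were called again. At equal class weights, therefore, nearly all measured genes lay within 1.5-fold, and the exceptions were few.

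**Figure D2:**
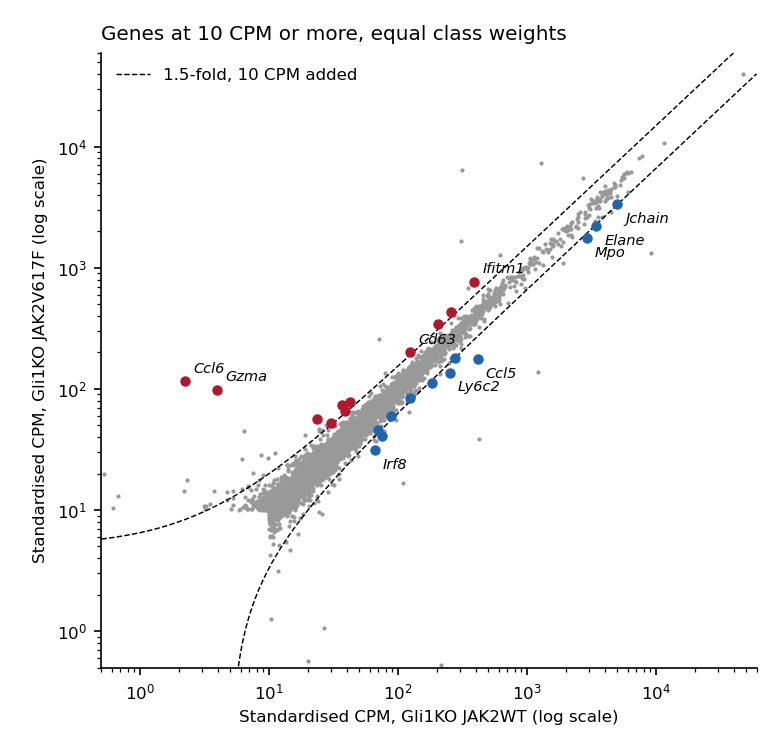
Each point is 1 of 8080 genes, with its standardised CPM in the Gli1KO JAK2V617F library (vertical) and in the Gli1KO JAK2WT library (horizontal), both on log axes; values too low for an axis are drawn at its edge. Dashed lines mark 1.5-fold, and the coloured points are genes named for their standardised ratio, among them Ifitm1 at 770 CPM with JAK2V617F and 388 CPM with JAK2WT.

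Nme2 and Ifitm1 were among the genes that stood higher with JAK2V617F in most classes. Nme2 (chromosome 11, 93949814 to 93956259, minus strand), a nucleoside diphosphate kinase, stood at 73.7 CPM with JAK2V617F and 36.4 CPM with JAK2WT (0.85, 0.78 to 0.93), and was higher with JAK2V617F in all 6 classes, from 0.43 in T cells to 0.94 in GMP. It shares sequence with its close relative Nme1 and a readthrough transcript of both genes, so its level depends on how reads were assigned and is uncertain.

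Ifitm1 (chromosome 7, 140967221 to 140969825, plus strand), an interferon-inducible membrane protein abundant in stem cells and one of the markers of the HSC/MPP class, stood at 770 CPM with JAK2V617F and 388 CPM with JAK2WT (0.97, 0.94 to 1.00). The difference was widest outside the stem cell class. In cluster 4 Ifitm1 stood at 941 CPM with JAK2V617F and 71.6 CPM with JAK2WT (3.54, 3.41 to 3.68), and in cluster 5 at 936 CPM with JAK2V617F and 106 CPM with JAK2WT (3.02, 2.94 to 3.103). In GMP it was 589 CPM with JAK2V617F and 106 CPM with JAK2WT (2.37), and in NK and innate lymphoid cells 176 CPM with JAK2V617F and 13.3 CPM with JAK2WT (3.00, 2.53 to 3.46). Mast cells and basophils, where it was most abundant, did not share the difference, at 2742 CPM with JAK2V617F and 2798 CPM with JAK2WT (-0.03). Its relative Ifitm3 followed more weakly, at 349 CPM with JAK2V617F and 190 CPM with JAK2WT in GMP (0.84), and Ifitm2 stood at 192 CPM with JAK2V617F and 54.4 CPM with JAK2WT in NK and innate lymphoid cells (1.65).

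Further genes were higher in most classes. Ier3, an early response gene, stood at 77.7 CPM with JAK2V617F and 42.5 CPM with JAK2WT (0.74), and Ctla2a, a cysteine protease inhibitor, at 340 CPM with JAK2V617F and 202 CPM with JAK2WT (0.73). Cd63, a tetraspanin of late endosomes and granules, stood at 201 CPM with JAK2V617F and 123 CPM with JAK2WT (0.66). Plscr1, an interferon-inducible scramblase, stood at 52.4 CPM with JAK2V617F and 30.03 CPM with JAK2WT (0.64), and the linker histone H1f0 at 65.2 CPM with JAK2V617F and 38.3 CPM with JAK2WT (0.64). The chemokine Ccl6, at 116 CPM with JAK2V617F and 2.21 CPM with JAK2WT (3.36), the mast cell and basophil genes Prss34 and Fcer1a (0.73 and 1.00), and the killer cell protease Gzma, at 98.4 CPM with JAK2V617F and 3.90 CPM with JAK2WT (2.96), came from the mast cell and T cell classes described further on.

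Of the 12 lowest genes, 5 belong to the granulocyte and monocyte line. Mpo, the myeloperoxidase of primary granules (chromosome 11, 87793581 to 87804413), stood at 1751 CPM with JAK2V617F and 2881 CPM with JAK2WT, a log2 ratio of -0.72 (-0.73 to -0.70). Neutrophil elastase, Elane, stood at 2212 CPM with JAK2V617F and 3415 CPM with JAK2WT (-0.62), the inhibitory lectin receptor Clec12a at 111 CPM with JAK2V617F and 183 CPM with JAK2WT (-0.67), and Ly6c2, a surface marker of monocytes, at 136 CPM with JAK2V617F and 250.7 CPM with JAK2WT (-0.83). Irf8, which directs monocyte and dendritic cell fate, stood at 31.2 CPM with JAK2V617F and 65.7 CPM with JAK2WT (-0.88). In the GMP clusters Clec12a was even, at 0.01 in cluster 6 and -0.03 in cluster 9, while in HSC/MPP it stood at -1.11 in cluster 3, 0.24 in cluster 16 and -0.17 in cluster 17. Mpo and Elane are markers by which the GMP class was named, and Ly6c2 is one of the monocyte markers.

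Lower genes with other roles were Lars2, a mitochondrial leucine tRNA ligase (41.2 CPM with JAK2V617F, 74.6 CPM with JAK2WT, -0.73), and Zbtb20, a zinc finger repressor (59.6 CPM with JAK2V617F and 88.1 CPM with JAK2WT, -0.49). H2-Q7, a non-classical class I gene whose near copy H2-Q6 makes its count uncertain, stood at 181 CPM with JAK2V617F and 275 CPM with JAK2WT (-0.57). Anxa3, an annexin, and Atp8b4, of the phospholipid flippase family, both stood at -0.50. Ccl5 (-1.18) and Jchain (-0.55) rested on lymphoid and plasma cells. The inducible heat shock genes Hspa1a and Hspa1b stood at 1.06 and 0.568 CPM with JAK2V617F and 26.6 and 19.8 CPM with JAK2WT. Hspa1a was lower in all 6 classes, for example at 0.570 CPM with JAK2V617F and 18.5 CPM with JAK2WT in HSC/MPP, and as near-identical copies the 2 genes may share reads.

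**Figure D3:**
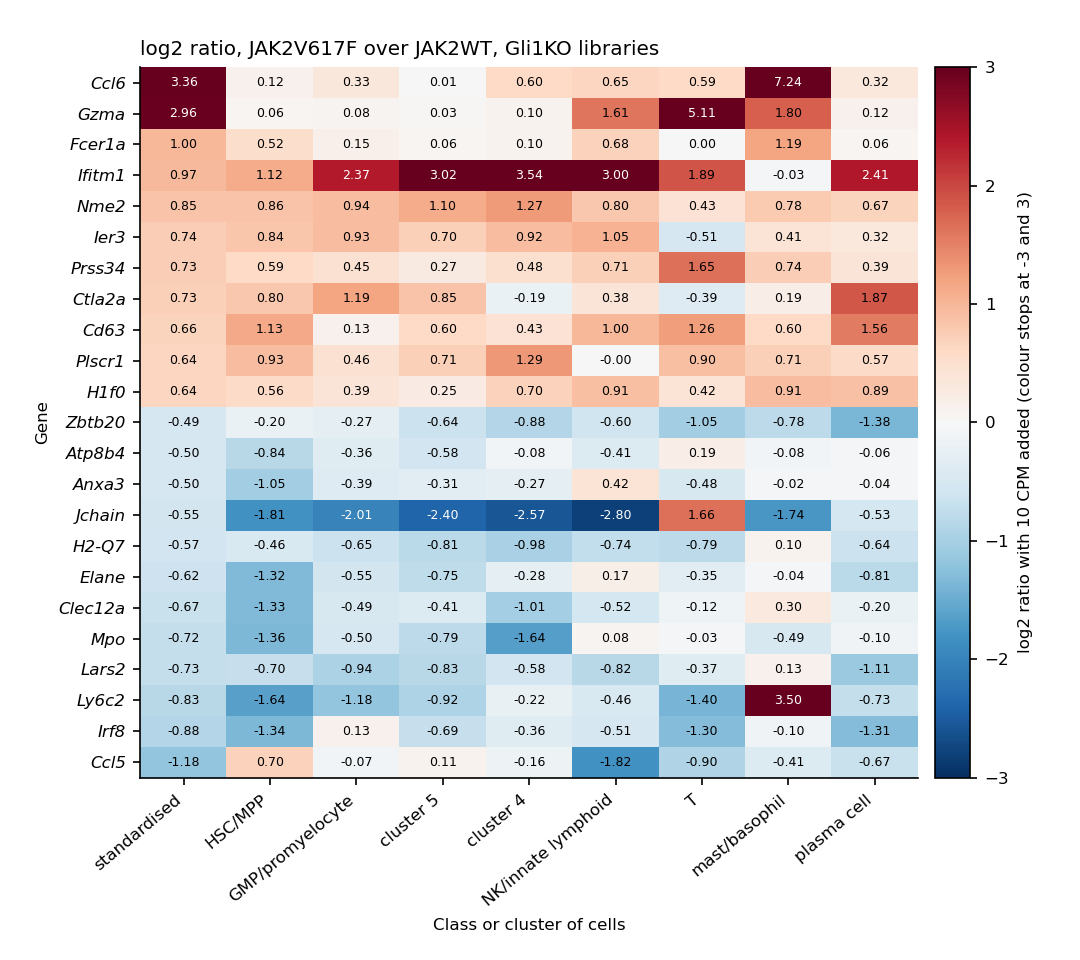
Log2 ratio, Gli1KO JAK2V617F over Gli1KO JAK2WT with 10 CPM added, of 11 of the 12 highest genes and of the 12 lowest (down the page) at equal class weights and in 8 classes or clusters (across); colour stops at -3 and 3. Nme2 is positive in every column, while Ccl6 and Gzma each rest on 1 or a few classes.

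Within HSC/MPP-like cells, 72 of 8060 genes (0.893%) were at least 1.5-fold higher with JAK2V617F and 69 (0.856%) at least 1.5-fold lower. The class itself was made up differently. Cluster 3, led by histone genes and Cd34, held 26.3% of it with JAK2V617F and 49.8% with JAK2WT, and cluster 17, led by Ctla2a, Adgrl4, Angpt1, Meis1 and Hlf, 51.6% with JAK2V617F and 35.2% with JAK2WT. Cluster 16, led by Ctla2a, Fos and Rgs1, held 22.1% with JAK2V617F and 14.98% with JAK2WT. At equal cluster weights 32 genes were at least 1.5-fold higher and 36 lower, so values in clusters 3, 16 and 17 are given beside those of the class.

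Socs2 and Socs3, feedback genes of the JAK-STAT pathway, were low in level and at least 1.5-fold higher with JAK2V617F. Socs3, an inhibitor of JAK kinases, stood at 15.5 CPM with JAK2V617F (625 UMIs) and 3.47 CPM with JAK2WT (63 UMIs), a log2 ratio of 0.92 (0.81 to 1.03). The ratio was positive in each cluster, at 0.59 in cluster 3, 1.20 in cluster 16 and 0.60 in cluster 17. Socs2, which restrains growth hormone and other STAT5 signals, stood at 16.9 CPM with JAK2V617F and 5.01 CPM with JAK2WT (0.84; 0.79, 0.88 and 0.42). Cish, of the same family, stood at 8.96 CPM with JAK2V617F and 3.96 CPM with JAK2WT (0.44, under the 1.5-fold mark; 0.42, 0.39 and 0.15). Pim1, a survival kinase under STAT5, stood at 326 CPM with JAK2V617F and 218 CPM with JAK2WT (0.56), but within the clusters the ratio was 0.58 in cluster 3, 0.10 in cluster 16 and 0.12 in cluster 17. Bcl2, a survival gene of the same list, was lower, at 78.1 CPM with JAK2V617F and 139 CPM with JAK2WT (-0.76), with a negative ratio in each cluster.

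The genes below are printed with their promoters because STAT factors bind sites of the form TTCNNNGAA (the same on both strands), and each of these windows holds 1 such match, in capitals. Each window runs from 250 bases before to 50 bases after the start site, in the direction of the gene, from RefSeq on GRCm38.p6. A match is a description of the letters and not a bound site.
Socs3 promoter, chr11:117969317-117969616, minus strand: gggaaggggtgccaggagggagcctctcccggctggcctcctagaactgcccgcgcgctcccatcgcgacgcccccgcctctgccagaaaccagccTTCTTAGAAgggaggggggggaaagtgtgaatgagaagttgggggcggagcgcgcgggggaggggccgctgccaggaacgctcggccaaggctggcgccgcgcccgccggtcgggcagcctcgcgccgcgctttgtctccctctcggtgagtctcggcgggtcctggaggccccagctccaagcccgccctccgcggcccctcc
Serpina3g promoter, chr12:104235897-104236196, plus strand: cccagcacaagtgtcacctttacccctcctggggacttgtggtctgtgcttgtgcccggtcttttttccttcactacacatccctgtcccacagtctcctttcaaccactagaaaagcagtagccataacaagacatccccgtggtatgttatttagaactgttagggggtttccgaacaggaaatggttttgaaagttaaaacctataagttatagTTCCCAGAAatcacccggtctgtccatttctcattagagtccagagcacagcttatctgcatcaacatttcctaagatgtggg
Plscr1 promoter, chr9:92249944-92250243, plus strand: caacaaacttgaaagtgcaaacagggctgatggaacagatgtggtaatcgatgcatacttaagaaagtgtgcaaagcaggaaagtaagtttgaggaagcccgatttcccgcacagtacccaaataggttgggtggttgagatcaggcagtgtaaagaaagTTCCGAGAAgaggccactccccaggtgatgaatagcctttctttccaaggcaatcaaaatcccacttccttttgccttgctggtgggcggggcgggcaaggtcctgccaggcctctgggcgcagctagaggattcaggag
Of the genes at least 1.5-fold higher in HSC/MPP, 50 had a promoter in the table and 8 of them (16%) held the motif: Ctla2a, Emilin2, Gimap6, Ltb, Plscr1, Serpina3g, Socs3 and Tnfrsf18. Among the lower genes it was 6 of 51 (11.8%), and among all 27025 genes with a promoter 2582 (9.55%). In GMP the order was the reverse, with 8 of 52 (15.4%) among the higher genes and 5 of 27 (18.5%) among the lower genes.

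Serpina3g, a serine protease inhibitor, stood at 167 CPM with JAK2V617F and 73.4 CPM with JAK2WT in HSC/MPP (1.09; 1.08, 0.59 and 0.67 in clusters 3, 16 and 17). Plscr1 stood at 66.6 CPM with JAK2V617F and 30.3 CPM with JAK2WT (0.93; 0.97, 0.71 and 0.63). Ifitm1 stood at 971 CPM with JAK2V617F and 442 CPM with JAK2WT (1.12; 1.25, 0.74 and 0.54) and Ly6a, the Sca-1 stem cell antigen and a marker of the class, at 118.5 CPM with JAK2V617F and 49.9 CPM with JAK2WT (1.10; 1.21, 0.71 and 0.38). S100a6, a calcium-binding protein, stood at 97.6 CPM with JAK2V617F and 28.99 CPM with JAK2WT (1.46; 1.15, 1.38 and 1.27). Hmga2, a chromatin protein linked to self-renewal, stood at 48.5 CPM with JAK2V617F and 19.8 CPM with JAK2WT (0.97; 0.85, 1.17 and 0.81). These 6 genes had positive ratios in all 3 clusters.

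A second set differed mainly in cluster 3. Fos, an AP-1 subunit, stood at 336 CPM with JAK2V617F and 171 CPM with JAK2WT in the class (0.93), with 1.71 in cluster 3, 0.20 in cluster 16 and -0.15 in cluster 17. Egr1, another early response factor, followed the same order at 1.47, 0.02 and -0.07, and so did the lipid carrier Apoe at 1.34, 0.03 and -0.11. Cd63 stood at 157 CPM with JAK2V617F and 66.2 CPM with JAK2WT (1.13), with 1.495 in cluster 3, 0.19 in cluster 16 and 0.54 in cluster 17. Regulators of stem cells were closer to even: Hlf stood at 97.5 CPM with JAK2V617F and 67.8 CPM with JAK2WT (0.47), Meis1 at 142 CPM with JAK2V617F and 103 CPM with JAK2WT (0.42), Mecom at 27.3 CPM with JAK2V617F and 20.5 CPM with JAK2WT (0.29) and Procr at 18.7 CPM with JAK2V617F and 13.8 CPM with JAK2WT (0.27), all under the 1.5-fold mark. In clusters 3, 16 and 17 Hlf stood at 0.57, -0.18 and 0.03, Meis1 at 0.57, -0.12 and -0.14, Mecom at 0.35, -0.20 and -0.08 and Procr at 0.34, -0.29 and -0.21.

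The lower genes of HSC/MPP included those of granulocyte and monocyte differentiation, with the widest differences in cluster 3. Mpo stood at 793 CPM with JAK2V617F and 2046 CPM with JAK2WT (-1.36), with -1.08 in cluster 3, -0.43 in cluster 16 and -0.50 in cluster 17. Ctsg, the granule protease cathepsin G, stood at 529 CPM with JAK2V617F and 1346 CPM with JAK2WT (-1.33; -1.08, -0.15 and -0.20). Elane stood at 447 CPM with JAK2V617F and 1133 CPM with JAK2WT (-1.32), at -1.01 in cluster 3 but 0.31 in cluster 16 and 0.21 in cluster 17. In the monocyte direction, Ly6c2 stood at 17.3 CPM with JAK2V617F and 75.02 CPM with JAK2WT (-1.64; -1.69, -0.26 and -0.16), and Irf8 at 31.1 CPM with JAK2V617F and 94.0 CPM with JAK2WT (-1.34; -1.20, -0.05 and -0.51). F13a1, a coagulation factor subunit made by monocytes, stood at 8.52 CPM with JAK2V617F and 36.9 CPM with JAK2WT (-1.34; -1.28, -0.05 and -0.07). Dntt, the lymphoid DNA polymerase, stood at 12.8 CPM with JAK2V617F and 34.0 CPM with JAK2WT (-0.95; -1.30, -0.59 and -0.71). The proliferation gene Mki67 stood at 195 CPM with JAK2V617F and 346 CPM with JAK2WT in the class (-0.80) but at -0.26, 0.04 and -0.03 within the clusters. Of the 9 GMP markers, 8 were measured in HSC/MPP, and 0 were at least 1.5-fold higher and 5 lower, with a median of -0.75. Of all genes 0.893% were higher and 0.856% lower in that class.

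**Figure D4:**
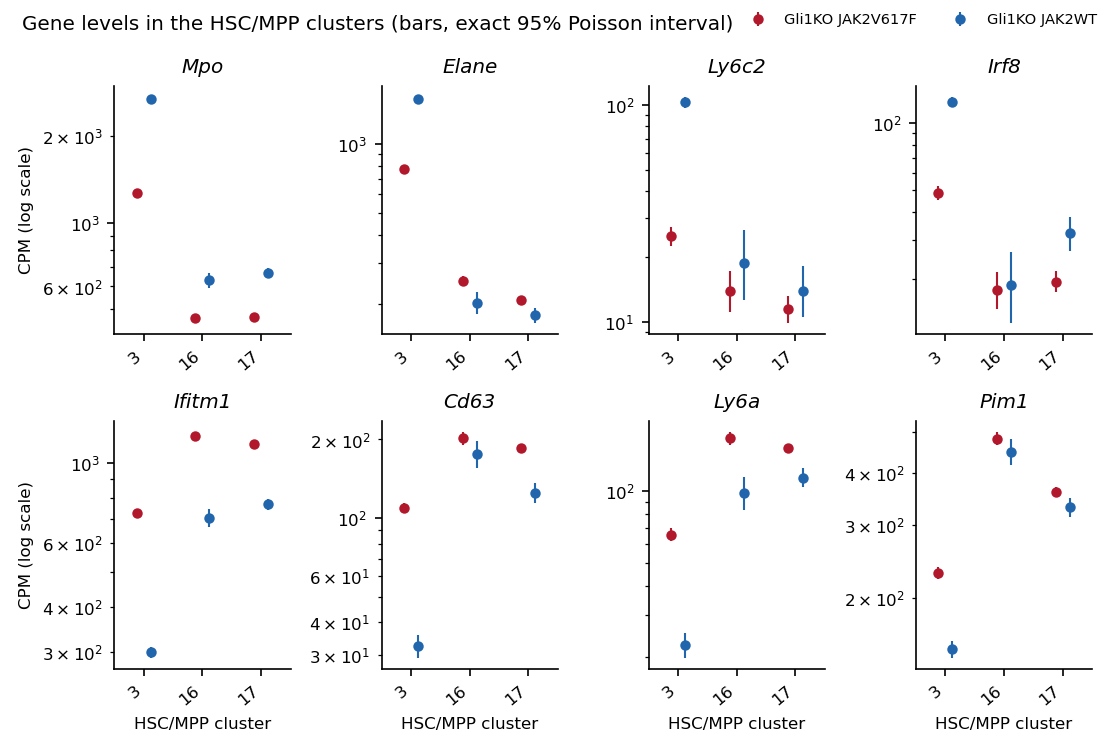
CPM (log axis) of 8 genes in the 3 clusters of the HSC/MPP class, points for the Gli1KO JAK2V617F and Gli1KO JAK2WT libraries with exact 95% Poisson intervals. Mpo in cluster 3 stands at 1263 CPM with JAK2V617F and 2690 CPM with JAK2WT, against 469 CPM with JAK2V617F and 668 CPM with JAK2WT in cluster 17.

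In GMP and promyelocyte-like cells, 71 of 7531 genes (0.943%) were at least 1.5-fold higher with JAK2V617F and 42 (0.558%) lower. Cluster 9, led by Mpo, Ctsg and Myc, held 61.5% of the class with JAK2V617F and 27.8% with JAK2WT, and cluster 6, led by Elane and Prtn3, 38.5% with JAK2V617F and 72.2% with JAK2WT. At equal cluster weights 22 genes were higher and 15 lower. Pim1 stood at 177 CPM with JAK2V617F and 78.1 CPM with JAK2WT (1.09, 1.01 to 1.17), and at 0.78 in cluster 6 and 0.65 in cluster 9. Fos stood at 154 CPM with JAK2V617F and 59.1 CPM with JAK2WT (1.25), at 1.15 and 1.00 in the clusters. Socs3 held 151 UMIs with JAK2V617F and 11 with JAK2WT, and the cyclin Ccnd1 stood at 14.3 CPM with JAK2V617F and 4.10 CPM with JAK2WT (0.79; 0.05 and 0.74). Csf2rb, the shared beta chain of the interleukin 3 and GM-CSF receptors that signals through JAK2, stood at 35.7 CPM with JAK2V617F and 19.99 CPM with JAK2WT (0.61; 0.51 and 0.60).

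Ctla2a stood at 83.3 CPM with JAK2V617F and 30.8 CPM with JAK2WT in GMP (1.19; 0.85 in cluster 6 and 0.28 in cluster 9), but at equal cluster weights at 73.0 CPM with JAK2V617F and 52.9 CPM with JAK2WT (0.40), under the 1.5-fold mark. Meis1 stood at 24.3 CPM with JAK2V617F and 12.3 CPM with JAK2WT (0.62; 0.40 and 0.13) and Hmga2 at 18.0 CPM with JAK2V617F and 5.03 CPM with JAK2WT (0.90; 0.44 and 0.47), both under the mark within each cluster. Among lower genes, Ly6c2 stood at 316 CPM with JAK2V617F and 726 CPM with JAK2WT (-1.18), with -0.51 in cluster 6 and -0.84 in cluster 9. Mki67 stood at 66.2 CPM with JAK2V617F and 127 CPM with JAK2WT (-0.85; -0.70 and -0.07), and the linker histone Hist1h1b at 217 CPM with JAK2V617F and 417 CPM with JAK2WT (-0.91; -0.47 and 0.18). Mpo stood at 5552 CPM with JAK2V617F and 7863 CPM with JAK2WT (-0.50), and Elane at 8482 CPM with JAK2V617F and 12443 CPM with JAK2WT (-0.55), but Elane was even within the clusters at 0.02 and -0.09. The eosinophil granule gene Prg2 (68.0 CPM with JAK2V617F and 6.83 CPM with JAK2WT, 2.21), rested on few cells: 1 cell held 56.1% of its UMIs with JAK2V617F and 1 cell 50% with JAK2WT.

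In cluster 5, 84 of 7467 genes (1.12%) were at least 1.5-fold higher with JAK2V617F and 93 (1.25%) lower. Pim1 stood at 230 CPM with JAK2V617F and 64.1 CPM with JAK2WT (1.70, 1.59 to 1.80). The lysosomal protease Ctsc, which activates granule proteases, stood at 245 CPM with JAK2V617F and 92.7 CPM with JAK2WT (1.31), and Nme2 at 115 CPM with JAK2V617F and 48.4 CPM with JAK2WT (1.10). Socs3 had 108 UMIs in 69 of 440 cells with JAK2V617F and 0 in 298 cells with JAK2WT. Lower were Ly6c2 (622 CPM with JAK2V617F and 1182 CPM with JAK2WT, -0.92), the progenitor antigen Cd93 (53.1 CPM with JAK2V617F and 117 CPM with JAK2WT, -1.01), and the nuclear RNA Malat1 (2636 CPM with JAK2V617F and 4670 CPM with JAK2WT, -0.82).

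In cluster 4, with 53 cells with JAK2V617F and 269 with JAK2WT, 207 of 7928 genes (2.61%) were at least 1.5-fold higher and 257 (3.24%) lower. Pim1 again stood higher, at 280 CPM with JAK2V617F and 104 CPM with JAK2WT (1.35), beside Cebpb, a myeloid transcription factor (213 CPM with JAK2V617F and 71.6 CPM with JAK2WT, 1.45). Dntt stood at 59.4 CPM with JAK2V617F and 318 CPM with JAK2WT (-2.24), and Mpo at 209 CPM with JAK2V617F and 675 CPM with JAK2WT (-1.64). In monocyte-like cells, which numbered 77 with JAK2V617F and 47 with JAK2WT and did not enter the standardised values, Socs3 held 43 UMIs with JAK2V617F and 0 with JAK2WT. Pim1 was thus past the 1.5-fold mark in GMP, cluster 5 and cluster 4, as it was in cluster 30 (1.40) and in mast cells and basophils (0.64), and not in HSC/MPP.

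**Figure D5:**
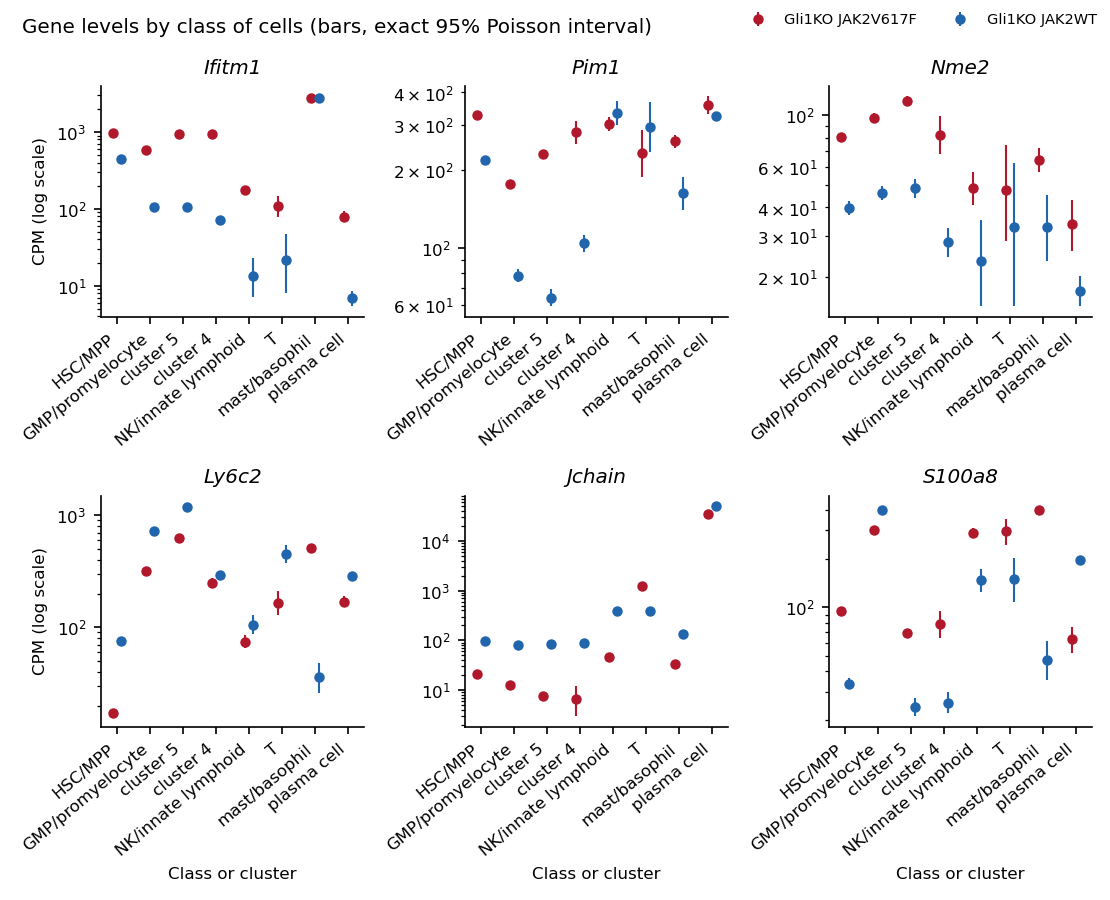
CPM (log axis) of 6 genes in 8 classes or clusters, points for the Gli1KO JAK2V617F and Gli1KO JAK2WT libraries with exact 95% Poisson intervals. Ifitm1 in cluster 5 stands at 936 CPM with JAK2V617F and 106 CPM with JAK2WT; Jchain is lower with JAK2V617F in every column but T cells, where 1 cell held 93.6% of its UMIs.

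Markers of plasma cells and of neutrophils also differed between the libraries outside those cells. Jchain, the joining chain of antibodies, stood at 20.8 CPM with JAK2V617F and 98.3 CPM with JAK2WT in HSC/MPP (-1.81), at 12.8 CPM with JAK2V617F and 81.8 CPM with JAK2WT in GMP (-2.01) and at 46.0 CPM with JAK2V617F and 382 CPM with JAK2WT in NK and innate lymphoid cells (-2.80). The summed level of the 8 plasma cell markers was 381 CPM with JAK2V617F and 1002 CPM with JAK2WT in HSC/MPP, with 0 of the 8 at zero counts in either library, beside a plasma cell share of 0.978% with JAK2V617F and 9.84% with JAK2WT. The neutrophil gene S100a8 stood at 94.0 CPM with JAK2V617F and 33.6 CPM with JAK2WT in HSC/MPP (1.26) and at 402 CPM with JAK2V617F and 47.0 CPM with JAK2WT in mast cells and basophils (2.85). The ratio was negative in GMP (299 CPM with JAK2V617F and 399 CPM with JAK2WT, -0.40) and plasma cells (63.3 CPM with JAK2V617F and 197 CPM with JAK2WT, -1.50). The summed level of the 9 neutrophil markers in HSC/MPP was 274 CPM with JAK2V617F and 132 CPM with JAK2WT, beside a neutrophil share of 4.32% with JAK2V617F and 0.637% with JAK2WT. In GMP that sum was 951 CPM with JAK2V617F and 1368 CPM with JAK2WT, and in plasma cells 178 CPM with JAK2V617F and 663 CPM with JAK2WT. Of those 9, whatever their level, 4 were at least 1.5-fold higher and 0 lower in HSC/MPP, 0 higher and 2 lower in GMP, and 1 higher and 6 lower in plasma cells. Of the members at 10 CPM or more, 3 of 5 were higher in HSC/MPP, 2 of 6 lower in GMP and 6 of 6 lower in plasma cells. Of all genes 0.893% were higher in HSC/MPP, 0.558% lower in GMP and 5.37% lower in plasma cells. Camp was 1 of the 6 lower in plasma cells, and 1 of the 371 plasma cells with JAK2WT held 49.1% of its 1132 UMIs. The part of free RNA in these values was not tested, nor its part in the Prss34 value of HSC/MPP (0.59).

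In NK and innate lymphoid-like cells, 234 of 8529 genes (2.74%) were at least 1.5-fold higher with JAK2V617F and 248 (2.91%) lower. Over the 6743 genes with at least 30 counts in the library where they were higher, 234 (3.47%) were higher and 153 (2.27%) lower. That count is a stricter limit for lower genes, as the class held 2976070 UMIs with JAK2V617F and 974981 with JAK2WT. Over genes at 50 CPM or more in either library, 67 were higher and 99 lower. Cluster 0, led by Gata3, Il7r and Il1rl1, genes of innate lymphoid cells, held 55.2% of the class with JAK2V617F and 42.9% with JAK2WT, and cluster 21, led by the NK cell genes Xcl1, Ncr1 and Klrk1, 29.6% with JAK2V617F and 40.1% with JAK2WT. Ccl5, a chemokine of killer lymphocytes, stood at 398 CPM with JAK2V617F and 1428 CPM with JAK2WT (-1.82), and at 1060 CPM with JAK2V617F and 3053 CPM with JAK2WT within cluster 21 (-1.52). The costimulator Icos stood at 101 CPM with JAK2V617F and 225 CPM with JAK2WT (-1.08), and Zfp36, which destabilises cytokine mRNAs, at 152 CPM with JAK2V617F and 319 CPM with JAK2WT (-1.02). Higher were Stmn1, a microtubule regulator of dividing cells, at 542 CPM with JAK2V617F and 196 CPM with JAK2WT (1.42), and Hist1h1b at 139 CPM with JAK2V617F and 47.2 CPM with JAK2WT (1.38). A single cell of the 770 held 20.6% of the Hist1h1b UMIs with JAK2V617F. Pim1, higher in the myeloid groups, stood at -0.14 here, and Jak2 at 73.6 CPM with JAK2V617F and 116 CPM with JAK2WT (-0.59), a difference of just over 1.5-fold.

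T cell-like cells were few, 75 with JAK2V617F and 59 with JAK2WT, and their counts were low: 1561 of 8811 genes (17.7%) were at least 1.5-fold higher and 1413 (16%) lower. Over the 2070 genes with at least 30 counts in the higher library the numbers were 374 (18.1%) and 171 (8.26%). That count is a stricter limit for lower genes, as the class held 397487 UMIs with JAK2V617F and 274549 with JAK2WT. Over genes at 50 CPM or more in either library, 573 were higher and 478 lower. Gzma, granzyme A of killer cells, stood at 3985 CPM with JAK2V617F and 106 CPM with JAK2WT (5.11), from 24 of 75 cells with JAK2V617F and 4 of 59 with JAK2WT. Of its UMIs, 1 cell held 25.4% with JAK2V617F, and 1 cell held 55.2% of only 29 with JAK2WT. Ccl5 stood lower, at 5152 CPM with JAK2V617F and 9627 CPM with JAK2WT (-0.90), as did the chemokine Xcl1 at 171 CPM with JAK2V617F and 900 CPM with JAK2WT (-2.33), of which 1 cell held 27.9% with JAK2V617F and 41.3% with JAK2WT. The proliferation gene Mki67 stood at 322 CPM with JAK2V617F and 29.1 CPM with JAK2WT (3.08), the JAK2WT value from 8 UMIs, and Cenpf, a kinetochore protein, had 121 UMIs in 12 cells with JAK2V617F and 1 UMI in 1 cell with JAK2WT. The plasma cell genes that seem higher here rest on 1 cell, which held 93.6% of the Jchain and 83.6% of the Igkc UMIs with JAK2V617F.

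Among mast cell and basophil-like cells, 229 of 8196 genes (2.79%) were at least 1.5-fold higher with JAK2V617F and 136 (1.66%) lower. Over the 6617 genes with at least 30 counts in the library where they were higher, the numbers were 229 (3.46%) and 74 (1.12%). That count is a stricter limit for lower genes, as the class held 4466823 UMIs with JAK2V617F and 1148774 with JAK2WT. Over genes at 50 CPM or more in either library, 94 were higher and 38 lower. A cluster of cells held by the JAK2V617F library alone set the leading ratios. Cluster 29, led by Ccl6 and the basophil genes Prss34, Mcpt8 and Fcer1a, had 52 cells with JAK2V617F and 0 with JAK2WT, where 0 of 3770 cells allows a share of up to 0.0796%. The wild type libraries had 50 cells of it with JAK2V617F and 2 with JAK2WT. It held 14 of the 59 GFP-bearing cells of the JAK2V617F library. Ccl6 stood at 10766 CPM in cluster 29, and at 16.5 CPM with JAK2V617F and 3.48 CPM with JAK2WT in cluster 27, which held the rest of the class. Akr1c18, a steroid dehydrogenase of basophils, stood at 660 CPM in cluster 29 and 0 in cluster 27 of both libraries, and Il4, the type 2 cytokine, at 582 CPM against 20.6 CPM with JAK2V617F and 13.9 CPM with JAK2WT.

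Within cluster 27 the mast cell and basophil genes were closer to even. Prss34 stood at 5829 CPM with JAK2V617F and 4649 CPM with JAK2WT (0.33), Fcer1a at 529 CPM with JAK2V617F and 411 CPM with JAK2WT (0.36), Mcpt8 at 2247 CPM with JAK2V617F and 2491 CPM with JAK2WT, and the mast cell protease Cpa3 at 1968 CPM with JAK2V617F and 1894 CPM with JAK2WT. Ly6c2, 3.50 higher in the class, stood at 13.8 CPM with JAK2V617F and 35.7 CPM with JAK2WT in cluster 27 and at 2651 CPM in cluster 29. Among the lowest genes of the class were the chromatin enzymes Kdm5b, a histone demethylase (68.5 CPM with JAK2V617F and 124 CPM with JAK2WT, -0.77), and Hdac7, a histone deacetylase (71.2 CPM with JAK2V617F and 123 CPM with JAK2WT, -0.71), both at -0.57 in cluster 27.

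Plasma cell-like cells, 59 with JAK2V617F and 371 with JAK2WT, stood apart in the heavy chain of IgM. Ighm, its gene, stood at 13094 CPM with JAK2V617F and 89820 CPM with JAK2WT (-2.78), and 15 of 59 cells with JAK2V617F and 370 of 371 with JAK2WT held at least 1 of its UMIs. With JAK2V617F 1 cell held 21.3% of them. A single UMI does not show that a cell makes the chain. Jchain UMIs were also in T cell-like cells, 11 of 75 with JAK2V617F and 47 of 59 with JAK2WT, and Igkc UMIs in 62 and 59 of them. The part of free RNA in the Ighm counts was not tested. Jchain stood at 34206 CPM with JAK2V617F and 49563 CPM with JAK2WT (-0.53) and the light chain Igkc at -0.21. Slpi, an elastase inhibitor, stood at 16359 CPM with JAK2V617F and 2220 CPM with JAK2WT (2.88), in 58 of 59 cells with JAK2V617F and 347 of 371 with JAK2WT, and the adhesion protein Epcam at 176 CPM with JAK2V617F and 48.8 CPM with JAK2WT (1.66). In all, 331 of 4506 genes (7.35%) were at least 1.5-fold higher and 242 (5.37%) lower. Xist UMIs were in 1.69% of these cells with JAK2V617F and 6.74% with JAK2WT.

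The gene lists showed few members past 1.5-fold at equal class weights. Of the JAK2-coupled receptors, 8 of 15 were measured and 0 differed (median 0.04), and of JAKs, STATs and their feedback genes 21 of 21 were measured and 0 differed (0.03), beside a median of 0.01 over all genes. In HSC/MPP 2 of 19 measured JAK, STAT and feedback genes were higher, Socs2 and Socs3, and 0 lower (0.893% and 0.856% of all genes). STAT5 and survival targets had a median of 0.10 with 0 of 17 past the mark, and in GMP a median of 0.32 with 2 of 12 higher, Pim1 and Ccnd1, where 0.943% of all genes were higher. In HSC/MPP 0 of 14 were higher and 1 lower, Bcl2 (0.893% and 0.856% of all genes). Mast cells and basophils had 6 of 15 higher and 0 lower (2.79% and 1.66% of all genes). That class includes cluster 29, with 52 cells with JAK2V617F and 0 with JAK2WT, whose part in this count was not tested. NK and innate lymphoid cells had 1 of 13 higher and 0 lower (2.74% and 2.91%). T cells had 2 of 14 higher and 3 lower (17.7% and 16%), and plasma cells 0 of 9 higher and 1 lower (7.35% and 5.37%). Of the feedback genes of the MAPK pathway 1 of 8 was higher, Ier3 (0.594% of all genes). In GMP 2 of 6 were higher, Ier3 and the phosphatase Dusp1 (0.943% of all genes).

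The interferon-inducible genes Ifitm1 and Plscr1 were higher at equal class weights, but the interferon-related lists had no member past the mark at those weights. The class I antigen presentation list had 0 of 19 members past 1.5-fold (median -0.06) and the interferon-induced GTPases 0 of 9 (-0.10). The proteasome (31 genes, 0.09), mitochondrial ribosome (33, 0.08), splicing factor (26, 0.05), translation factor (25, 0.04), actin (22, 0.12), chemokine receptor and integrin (12, -0.02), NRF2 (11, -0.08), interleukin 1 and tumour necrosis factor (9, 0.02), long noncoding RNA (7, -0.13) and glucocorticoid response (6, 0.12) lists also had 0 past the mark. Lysosome and cathepsin genes had 1 of 20 higher and 2 lower. Lipid handling had 1 of 15 higher, chromatin regulators 1 of 18 and annexins 1 of 13. Of all genes 0.594% were higher and 0.483% lower. Of 202 gene families sharing a symbol stem, the kappa light chain variable genes (Igkv) differed most often, with 8 of 9 measured members higher and 1 lower (0.594% and 0.483% of all genes). Within classes these 9 genes reached 10 CPM in plasma cells only, which numbered 59 with JAK2V617F and 371 with JAK2WT. A member enters this count by its level in either library, so a few cells of 1 library can bring it in. The count is therefore not a result about the family, and the part of single cells in it was not tested. The Ccl chemokines had 1 of 6 higher, Ccl6, and 1 lower, Ccl5 (0.594% and 0.483% of all genes). The Hspa heat shock family had 2 of 10 lower (0.483% of all genes). Within classes, interferon-induced GTPases were lower for 1 of 7 in HSC/MPP, 2 of 15 in NK and innate lymphoid cells and 5 of 13 in T cells. The shares of all genes lower there were 0.856%, 2.91% and 16%. In mast cells and basophils 1 of 6 GTPases and 1 of 19 class I genes were higher (2.79% of all genes). Class I genes were lower for 1 of 18 in GMP, 1 of 19 in NK and innate lymphoid cells, 2 of 19 in T cells and 1 of 18 in plasma cells. The shares of all genes lower there were 0.558%, 2.91%, 16% and 5.37%. The plasma cell count was thus close to its share and the T cell count under it.

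The wild type pair shares no library with the Gli1 knockout pair, and its ratios stand beside these over the 4 classes matched in all libraries. Those classes were HSC/MPP, GMP, NK and innate lymphoid cells, and mast cells and basophils. The pairs differed in sex-linked RNA as well as genotype. Y-linked UMIs in kept cells numbered 11888 with JAK2V617F and 9079 with JAK2WT in Gli1 knockout, but 0 with JAK2V617F and 1 with JAK2WT in wild type. Xist UMIs in wild type numbered 36779 with JAK2V617F and 78795 with JAK2WT. Median UMIs per cell there were 13250 with JAK2V617F and 4424.5 with JAK2WT. Ifitm1 had a log2 ratio of 0.96 in Gli1 knockout and 2.07 in wild type marrow, Pim1 0.49 and 0.73, Nme2 0.87 and 0.50, Ly6c2 -0.83 and -1.99, Irf8 -0.85 and -1.30, Mpo -0.72 and -0.67 and Elane -0.62 and -1.20. These 7 genes had the same sign in both pairs. Cd63 did not, at 0.63 in Gli1 knockout and -0.47 in wild type marrow. Whether any of these values differ between genotypes was not tested, and genotype cannot be told apart from the other differences between the pairs.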

How the data were processed

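The deposited files hold UMI counts for each gene in each called cell, which the authors left unnormalised (10x Genomics 3' v3.1, per the labels' protocols). Per the submitters' processing notes, the build was mm10 and the tools were Cell Ranger 4.0.0 and Seurat 4.0.4, with no role given. Each library listed 31054 features, of which 31011 matched GENCODE M21 (GRCm38, the same assembly), the source of coordinates. Hashtag libraries were not used here.

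Doublets were scored with Scrublet and the highest 0.8% per 1000 barcodes removed (455 cells with JAK2V617F, 229 with JAK2WT). All 4 libraries were clustered together in scanpy 1.11.5 (Python 3.11.15, numpy 2.4.6, igraph 0.11.9, pandas 2.3.3, scikit-learn 1.9.0, anndata 0.12.19, scipy 1.17.1; matplotlib 3.10.9): 2000 variable genes, 30 principal components, 15 neighbours, Leiden resolution 1.0, which gave 33 clusters. Of these, 22 were named from 18 marker sets, given a mean score of 0.5 or more, 3 or more markers at 50 CPM, a margin of 0.2 and 2 or more markers among the 20 leading genes. The limits on margin and leading genes were set after the clusters were seen.

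Each library's counts were added up over the cells of a class and scaled to CPM. Standardised CPM is the mean over the 6 matched classes with weights, in percent, of 46.9 (HSC/MPP), 22.2 (GMP), 13.5 (NK and innate lymphoid), 9.71 (plasma), 5.50 (mast and basophil) and 2.24 (T). Intervals are exact (Poisson, Clopper-Pearson), Fay-Feuer gamma for standardised CPM, delta-method for log2 ratios and log-normal for ratios of shares. UMIs of 1 cell are not independent, so intervals and limits cover counting error only. Cells are not replicates, and no p-value was computed. The code for the ratios was tested on simulated data with known changes, which does not stand in for replicates.

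The members and lists were chosen with earlier results of these data known. Named genes are the 12 highest and 12 lowest standardised ratios at 50 CPM or more that share their sign in at least 0.75 of the classes; the 4 highest and 4 lowest per class at 100 CPM and 30 counts; the extreme members of each of 20 lists; genes 2-fold apart alike in HSC/MPP and GMP; the furthest members of the leading families; and fixed genes. Of these, 1 gene is not reported here. Further genes were named after their values were seen, among them the Socs, Hmga2, S100a6, Apoe, Cebpb and basophil genes. Mitochondrial, ribosomal, predicted, immunoglobulin segment, Xist and Y-linked genes were not eligible. Alternatives changed the cell filter, doublets, added CPM, minimum level, scaling, weights, clustering and fold; cells with a GFP UMI alone were too few in the JAK2WT library for a comparison. Equal cluster weights within a class were added after the data were seen.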

Additional observations from a re-analysis of the deposited data

Results flagged for a closer look

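Gzma and Prss34 had opposite signs in the 2 genotypes, over the 4 classes matched in all 4 libraries. Those were HSC/MPP, GMP, NK and innate lymphoid cells, and mast cells and basophils. T cells, with 1584 Gzma UMIs with JAK2V617F and 29 with JAK2WT in Gli1 knockout marrow, were not among them. In NK and innate lymphoid cells there Gzma had 163 UMIs in 19 of 770 cells with JAK2V617F. With JAK2WT it had 11 UMIs in 2 of 217 cells, and 1 cell held 72.7%. Gzma, a protease of killer lymphocytes, had a log2 ratio of JAK2V617F over JAK2WT of 0.7924 in Gli1 knockout marrow and of -2.57 in wild type marrow, from 10.3 CPM with JAK2V617F and 1.73 CPM with JAK2WT in Gli1 knockout marrow and 0 CPM with JAK2V617F and 49.4 CPM with JAK2WT in wild type marrow. Prss34, a protease of basophils, stood at 0.7334 in Gli1 knockout marrow and at -0.80 in wild type marrow. Within cluster 27 of Gli1 knockout marrow it stood at 5829 CPM with JAK2V617F and 4649 CPM with JAK2WT. Cluster 29 had 52 cells with JAK2V617F and 0 with JAK2WT there, and its part in the Prss34 value was not tested. The whole ratio of Gzma depends on the 10 CPM added, as 1 library is at 0. With 1 library per group, the difference between the genotypes was not tested for either gene, and sex-linked RNA differed between the pairs as well.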

How the results depend on the processing

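No paired analysis was possible because each group is 1 library and no test was made. The standardised count of 48 genes at least 1.5-fold higher became 96 with 1 CPM added, 13 with 50 CPM, 20 over genes at 50 CPM or more, 191 in sums over all kept cells and 14 at 2-fold. The 39 lower genes became 84 with 1 CPM added, 11 with 50 CPM, 22 over genes at 50 CPM or more, 25 with no doublet removal, 24 at equal cluster weights, 85 in sums over all kept cells, 22 at resolution 0.5 and 8 at 2-fold. The higher share of the calls was 55.2%, against 69.2% in sums over all kept cells and 67.2% at resolution 0.5. With 1 CPM added, 50 CPM added and genes at 50 CPM or more, the calls per class became 306, 36 and 75 in HSC/MPP (141 as reported), 245, 24 and 52 in GMP (113), 1306, 49 and 166 in innate lymphoid cells with NK (482), 1042, 59 and 132 in mast cells and basophils (365), 1160, 131 and 197 in plasma cells (573), 2937, 217 and 554 in cluster 30 (1891), 1104, 82 and 177 in cluster 4 (464) and 475, 43 and 97 in cluster 5 (177). In T cells (2974) they became 584 with 50 CPM added and 1051 over genes at 50 CPM or more. Equal cluster weights gave 68 in HSC/MPP and 37 in GMP. The share ratio of GMP was 0.963 with the stricter cell filter, 0.440 with no doublet removal and 0.411 at resolution 0.5, that of monocytes 0.402 with no doublet removal and 0.160 at resolution 0.5, that of HSC/MPP 1.66 with the stricter filter and 2.55 with no doublet removal, and that of innate lymphoid cells with NK 1.59 with the stricter filter. The causes were not tested. Thinned to 3000 UMIs, Xist was in 0.649% of cells with JAK2V617F, Y-linked genes in 31.4% with JAK2V617F and 32.8% with JAK2WT, and GFP in 0.241% with JAK2V617F and 0.0336% with JAK2WT. Igkv12-44 turned to -0.0869 in sums over all kept cells and -0.00699 without the plasma cell class, and Ctss to 0.0469 without that class.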
